A study of Mus musculus with 12 samples.

Results

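The genes described here encode mitochondrial ribosomal proteins. They were taken by symbol: every gene of the deposited table whose name begins with Mrpl or Mrps and a number was included, and the 5 names marked as pseudogenes with -ps were left out. This gave 78 of 28999 genes, 49 named for the large subunit (Mrpl) and 29 for the small subunit (Mrps). The choice was by name, with no threshold on a measured value. All 78 were annotated as protein coding in GENCODE M21 with the coordinates of the deposited table (GRCm38), and they lay on 17 chromosomes, with 11 on chromosome 11 and 8 on chromosome 17.

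Mitochondria make a small set of respiratory chain proteins on ribosomes of their own. The RNA of that ribosome is encoded by the mitochondrial genome, whereas all of its proteins are encoded in the nucleus, made in the cytosol and imported. Some of these proteins descend from those of the bacterial ribosome, and others were added during the evolution of mitochondria. Resting haematopoietic stem cells rely mainly on glycolysis, and mitochondrial activity is known to rise when they leave quiescence.

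RNA sequencing covered bone marrow cells labelled as long-term haematopoietic stem cells (LT-HSCs) in 12 libraries, 3 in each of 4 groups. The groups were untreated wild-type mice, untreated Trim47-/- mice, wild-type mice given 5-fluorouracil (5-FU) and Trim47-/- mice given 5-FU, with 10 days stated for the drug. Trim47 belongs to the TRIM family of E3 ubiquitin ligases, and 5-FU kills cycling cells and so drives stem cells to rebuild the blood. The sources used here do not give strain, age, the surface gate, the deleted part of Trim47 or whether the libraries of a group came from separate animals. The p-values therefore reflect only how far these libraries spread, which may be technical.

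Libraries held 13919649 to 20703198 counts, and those of a group lay close together, so depth cannot be told apart from group. Levels are given as CPM, the usual count share of a library, with library sizes scaled by TMM, a factor that evens out composition. Trim47 RNA was present in every library, at 24.4 ± 0.531 CPM (untreated wild type) and 19.7 ± 3.63 CPM (untreated Trim47-/-; SD, n = 3 each), a difference that did not pass (adjusted p = 0.0632). After 5-FU the means were 35.4 ± 2.50 CPM for wild type and 11.3 ± 1.09 CPM for Trim47-/- (adjusted p = 5.50e-07). Without the position of the deletion these reads do not check the genotype, and the labels are used as given.

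Of the 78 members, 77 passed the filter on low counts. The exception was Mrps10, a small subunit protein with a bacterial relative (ENSMUSG00000034729, chr17:47368887-47381417, plus strand), which had 0 to 7 counts in every library and is not described further. Per length, the deposited FPKM values of the other 77 members, averaged over the 12 libraries, ran from 1.54 to 52.5 with a median of 7.84. The 4 highest means of FPKM were those of Mrpl34 (52.5), Mrpl12 (35.7), Mrps28 (27.0) and Mrpl24 (26.5). The lowest after Mrps10 were those of Mrpl58 (1.54), a peptidyl-tRNA hydrolase built into the large subunit, Mrps17 (1.60) and Mrpl53 (1.81). In the table, the messenger RNA (mRNA) of proteins of the same particle thus differed in FPKM by over an order of magnitude. FPKM also depends on the length set for each gene, and its part in this order was not tested. As means over the 12 libraries, Mrpl33 had 37.9 CPM and 3.70 FPKM, and Mrpl34 had 31.8 CPM and 52.5 FPKM.

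**Figure D1:**
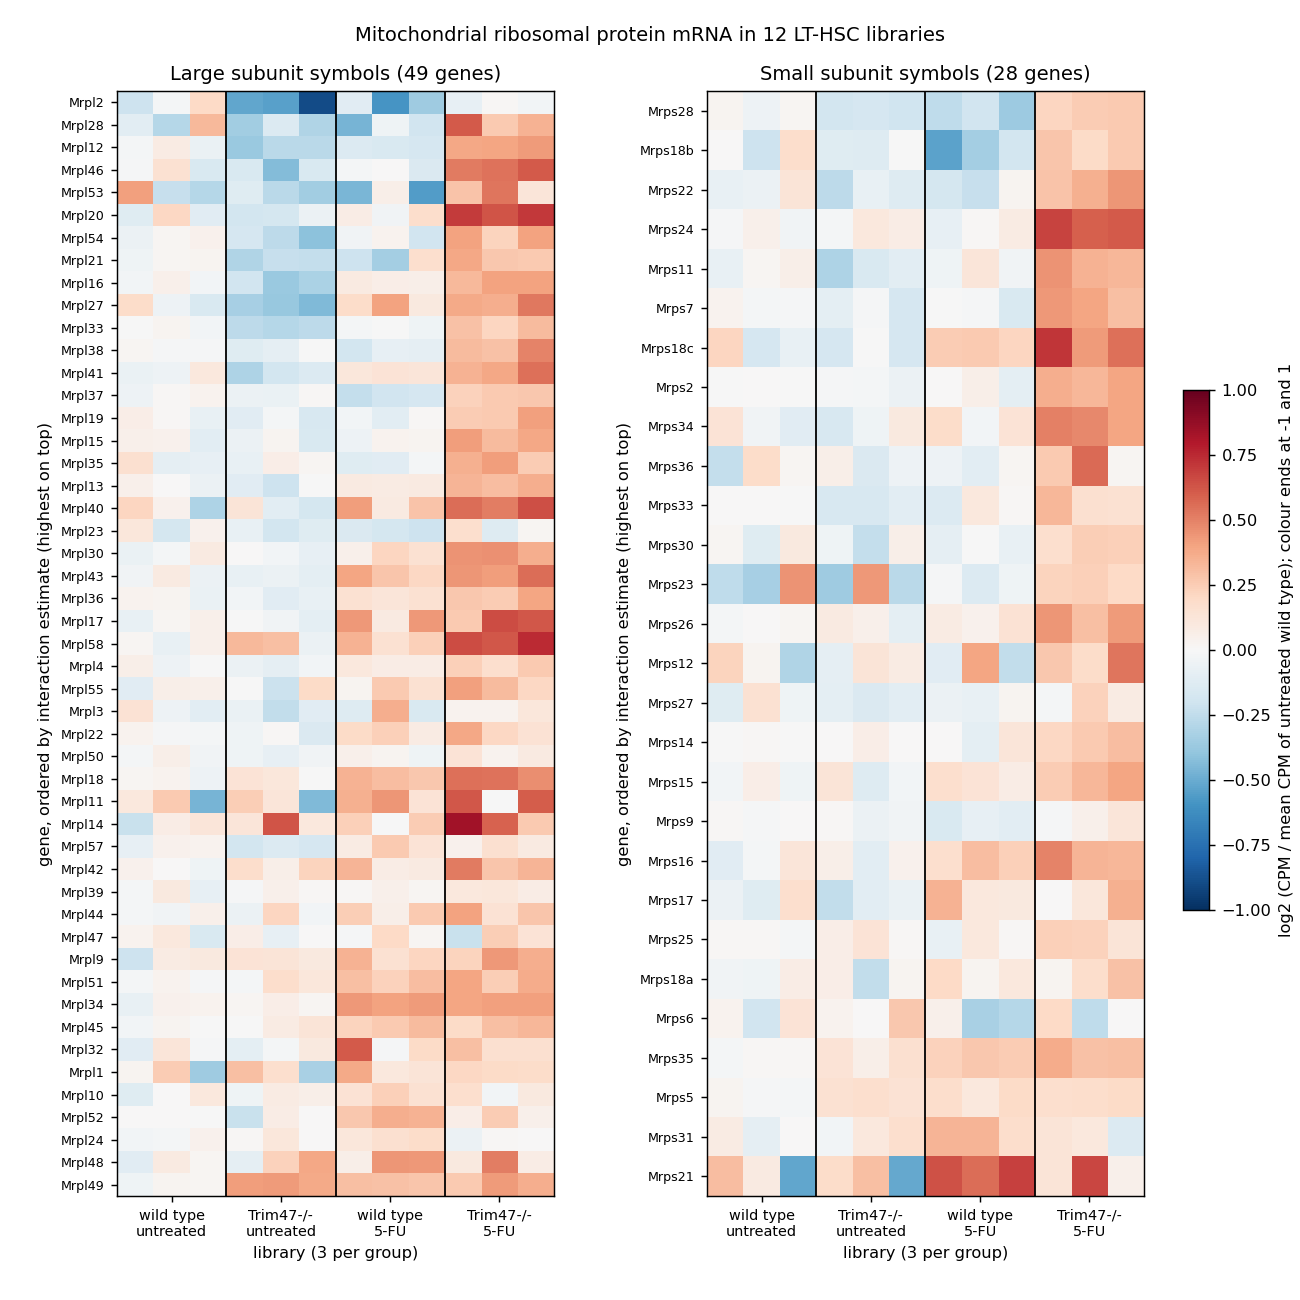
Each row is a member and each column a library; colour gives the log2 of its CPM over the mean CPM of the 3 untreated wild-type libraries, with colours ending at -1 and 1. The 3 columns of Trim47-/- after 5-FU are red in most rows of both subunits, whereas rows such as Mrpl49, Mrpl34 and Mrps21 follow other patterns.

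The mRNA of both subunits was highest in Trim47-/- cells after 5-FU. Summed over the 49 large subunit genes, the libraries of untreated wild type stood at 1393, 1431 and 1403 CPM and those of untreated Trim47-/- at 1351, 1373 and 1340.5 CPM. After 5-FU the sums were 1514, 1508 and 1504 CPM in wild type and 1733, 1716 and 1756 CPM in Trim47-/-. No library of Trim47-/- after 5-FU overlapped with those of any other group. The 29 small subunit genes summed to 713.4 ± 13.4 CPM in untreated wild type, 702 ± 3.87 in untreated Trim47-/-, 732 ± 3.56 in wild type after 5-FU and 865 ± 3.55 in Trim47-/- after 5-FU (SD, n = 3 each). The large sum divided by the small sum ran from 1.91 to 2.07 over the 12 libraries, with group means of 1.98, 1.93, 2.06 and 2.01 in the same order. Libraries of untreated Trim47-/- (1.91 to 1.94), Trim47-/- after 5-FU (1.99 to 2.02) and wild type after 5-FU (2.05 to 2.07) did not overlap. Those of untreated wild type ran from 1.93 to 2.05. These sums were chosen with results known and carry no test.

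**Figure D2:**
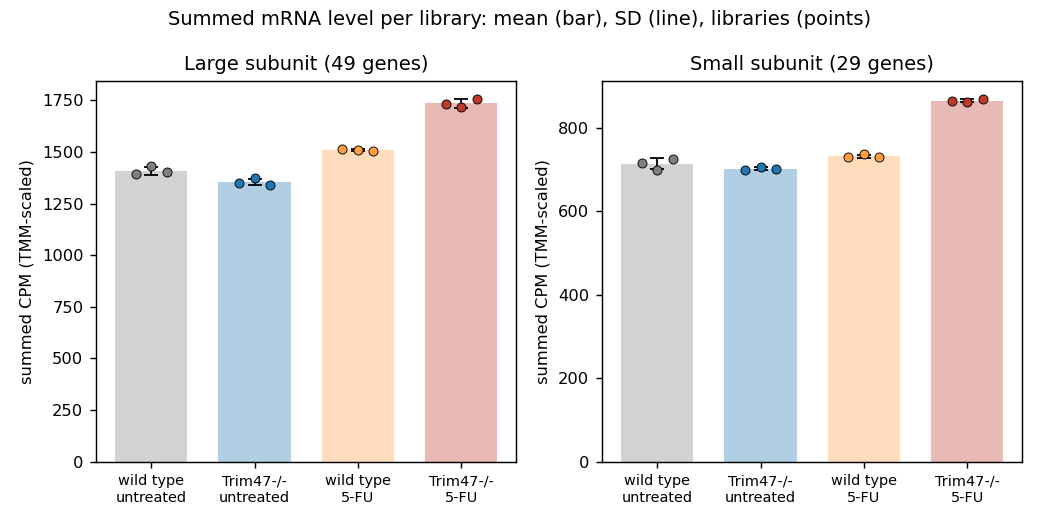
Bars give the mean summed CPM of the large (left) and small (right) subunit genes in each group, lines the SD and points the 3 libraries. Trim47-/- after 5-FU reached 1735 CPM for the large and 865 CPM for the small subunit, above the libraries of the other 3 groups.

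Gene by gene, 62 of the 77 members had their highest group mean in Trim47-/- after 5-FU (80.5%, against 32.4% of all 16319 genes tested). This held for 38 of 49 large and 24 of 28 small subunit genes. The lowest mean was in untreated Trim47-/- for 40 members and in untreated wild type for 25 (19.3% and 23.4% of all genes).

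After 5-FU, 38 of the 77 members were higher in Trim47-/- than in wild type and 3 were lower. Over all 16319 genes tested the shares were 27.2% higher and 27.6% lower (edgeR's quasi-likelihood test, Benjamini-Hochberg adjusted p under 0.05, used for every call). The members' log2 differences ran from -0.32 to 0.64 with a median of 0.21, against a median of -0.00037 for all genes, and 6 of the 77 reached 1.5-fold. All 3 Trim47-/- libraries lay above all 3 wild-type libraries in 46 members and below them in 3 (30.5% and 30.7% of all genes). Of the large subunit genes 22 of 49 rose and 2 fell, with a median of 0.19. Of the small subunit genes 16 of 28 rose and 1 fell, with a median of 0.26. With library totals in place of TMM 29 members rose and 3 fell, while among all genes the share of calls that were higher went from 49.6% to 39.4%.

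Markers of other blood cells differed between the same groups. Summed over 9 neutrophil markers the wild-type libraries after 5-FU stood at 3668 to 3760 CPM and the Trim47-/- libraries at 5851 to 6237 CPM, with 9 of 9 higher. Mpo was the largest part, with group means of 1831 and 3285 CPM. The list does not tell mature neutrophils from their precursors. The 7 monocyte and macrophage markers summed to 363 to 376 CPM and 751 to 790 CPM, with 7 of 7 higher. The 9 LT-HSC markers summed to 929 to 1078 CPM and 552 to 634 CPM, with 8 of 9 lower; none of these 3 lists had a marker at 0, and 6 of 6 megakaryocyte markers were lower. In bulk libraries fewer cells of a type and less RNA per cell cannot be told apart, and the part of these shifts in the result was not tested.

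Among large subunit proteins with a bacterial relative, 14 of 29 rose with the Trim47-/- label after 5-FU and 1 fell. Mrpl28 (ENSMUSG00000024181, chr17:26123500-26126613, plus strand) stood at 22.6, 30.4 and 27.5 CPM in wild type and at 47.9, 37.4 and 39.7 CPM in Trim47-/-. The groups did not overlap, although the libraries of each were spread, and the log2 difference was 0.64 ± 0.16 (SE, adjusted p = 0.00478). Mrpl20 (chr4:155802878-155809975, plus strand) stood at 26.5, 24.5 and 28.4 CPM against 40.95, 38.8 and 41.1 CPM, a difference of 0.61 ± 0.09 (adjusted p = 0.000128). Mrpl12 (ENSMUSG00000039640, chr11:120484613-120489065, plus strand) encodes the protein of the flexible stalk that recruits translation factors. Its libraries were among the tightest, at 60.0, 59.2 and 58.6 CPM in wild type and 86.3, 86.8 and 88.5 CPM in Trim47-/-, and the difference was 0.56 ± 0.04 (adjusted p = 6.14e-07).

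Large subunit proteins without a relative in the bacterial ribosome followed the same direction, with 8 of 20 higher and 1 lower. Mrpl46 (chr7:78775236-78783531, minus strand) stood at 17.7, 18.1 and 16.3 CPM in wild type and 25.9, 26.3 and 27.6 CPM in Trim47-/-, a difference of 0.61 ± 0.09 (adjusted p = 0.000182). Mrpl37 stood at 43.01, 44.5 and 45.3 CPM against 59.6, 61.0 and 61.1 CPM, a difference of 0.45 ± 0.04 (adjusted p = 1.61e-06). In both genes the gap between the groups exceeded the range within either. Mrpl58, of low FPKM, also rose (0.43 ± 0.10, adjusted p = 0.00365).

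Small subunit proteins with a bacterial relative rose in 10 of 16 cases, and 6 did not pass. Mrps24 is the counterpart of bacterial S3 at the mRNA entry channel (ENSMUSG00000020477, chr11:5703983-5715680, minus strand). It stood at 19.3, 20.6 and 21.6 CPM in wild type and 32.6, 30.9 and 31.2 CPM in Trim47-/-, a difference of 0.62 ± 0.06 (adjusted p = 3.78e-06), with wild-type values close to those of both untreated groups. Exons of Urgcp overlap Mrps24 on the same strand, and reads of the 2 genes may not be told apart. Mrps28 (chr3:8802146-8923918, minus strand) stood at 18.3, 19.0 and 17.0 CPM against 25.4, 25.9 and 26.1 CPM, a difference of 0.51 ± 0.05 (adjusted p = 9.40e-06). Mrps2 and Mrps7, both with bacterial counterparts, were higher by 0.37 ± 0.04 (adjusted p = 2.71e-05) and 0.43 ± 0.06 (adjusted p = 4.86e-05). Of the small subunit proteins without a relative in the bacterial ribosome, 5 of 9 rose and 1 fell.

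The 3 members that fell were Mrps31, Mrpl52 and Mrpl24. Mrpl24, with a bacterial relative, stood at 105, 108 and 110 CPM in wild type and 93.03, 97.5 and 97.0 CPM in Trim47-/-, a difference of -0.17 ± 0.04 (adjusted p = 0.00318). The 6 untreated libraries ran from 94.8 to 105 CPM, with the Trim47-/- libraries after 5-FU toward their lower end and the wild-type libraries at or above their top. Mrps31 was lower by -0.25 ± 0.09 (adjusted p = 0.0326) and Mrpl52 by -0.20 ± 0.08 (adjusted p = 0.0477). Both had wild-type levels after 5-FU above those of untreated wild type. Both calls were lost without treated wild-type replicate 1 or 2 or treated Trim47-/- replicate 3, which left 1 member called lower. In all, Mrpl52 lost its call under 11 of 19 alternatives and Mrps31 under 6 of 19, for both with the DESeq2 test among them. Over their alternatives the adjusted p ran from 0.00898 to 0.130 for Mrps31 and from 0.0103 to 0.151 for Mrpl52.

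**Figure D3:**
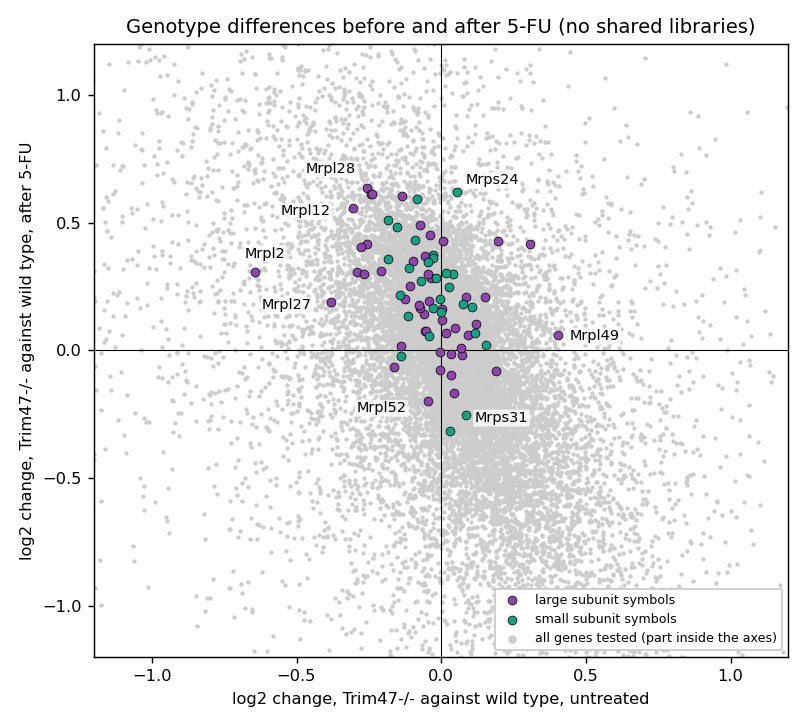
The horizontal axis gives the log2 difference of Trim47-/- from wild type in untreated mice and the vertical axis that after 5-FU, for all genes tested inside the axes (grey), large (purple) and small (green) subunit genes. Most members sit above the horizontal line at 0, within 0.64 of it, and close to the vertical line.

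In untreated mice few members differed between the genotypes. Of 77 members 2 were higher in Trim47-/- and 7 were lower, below the shares over all genes (17.6% higher and 15.4% lower). The median log2 difference was -0.04 with a range of -0.64 to 0.41, against 0.03 for all genes. Separation of the libraries was seen for 5 members above and 14 below (26.3% and 21.6% of all genes). The large subunit genes had 1 higher and 6 lower of 49, and the small subunit genes 1 higher and 1 lower of 28. In this comparison 7 of 8 erythroid and 5 of 9 LT-HSC markers were higher. Of 9 neutrophil markers 7 were higher and 2 lower. Lower were 4 of 7 monocyte and macrophage and 4 of 6 megakaryocyte markers. Erythroid sums ran from 89.9 to 98.6 CPM in wild type and from 160 to 163 CPM in Trim47-/-. The part of these markers in the result was not tested.

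Mrpl2 (ENSMUSG00000002767, chr17:46646229-46650139, plus strand), the counterpart of bacterial L2 near the catalytic centre, was the member furthest down in untreated Trim47-/-. Its wild-type libraries stood at 31.1, 35.3 and 40.98 CPM and its Trim47-/- libraries at 25.005, 24.5 and 19.3 CPM. The groups did not overlap and the difference was -0.64 ± 0.13 (adjusted p = 0.00366). Mrpl27, whose bacterial relative reaches the catalytic centre, stood at 12.9, 11.02 and 10.2 CPM against 9.07, 8.74 and 8.41 CPM (-0.38 ± 0.10, adjusted p = 0.0154). The call was lost when wild-type replicate 1 or Trim47-/- replicate 3 was left out, and its adjusted p ran from 0.0106 to 0.0652 over its alternatives. Mrpl12 stood at 65.0, 69.6 and 63.0 CPM against 51.0, 54.5 and 54.5 CPM (-0.30 ± 0.04, adjusted p = 0.000219).

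The 2 members that were higher in untreated Trim47-/- were Mrpl49 and Mrps5. Mrpl49 (chr19:6053622-6057785, minus strand) stood at 19.8, 20.8 and 20.7 CPM in wild type and 27.2, 27.4 and 26.5 CPM in Trim47-/- (0.41 ± 0.05, adjusted p = 0.000118). Mrps5, the counterpart of bacterial S5, stood at 42.9, 41.6 and 41.5 CPM against 46.7, 47.1 and 46.3 CPM (0.15 ± 0.03, adjusted p = 0.00555), a call lost by the DESeq2 test (adjusted p = 0.0709). Exons of Syvn1 overlap Mrpl49 on the opposite strand, and the sources used here do not give the strand setting of the counts.

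In the 2 genotype comparisons, which share no libraries, 0 members were called in the same direction in both, and of all genes tested 2.13% were higher in both and 1.44% lower in both. The 5 members called lower in untreated mice and higher after 5-FU were Mrpl12, Mrpl16, Mrpl33, Mrpl54 and Mrps28 (6.49% of members, against 9.69% of all genes). The untreated call of Mrps28 was lost by the DESeq2 test and without replicate 1 or 3 of either untreated group (adjusted p 0.00844 to 0.0654 over its alternatives). Mrpl33 stood at 37.6, 38.4 and 36.9 CPM in untreated wild type and 31.5, 30.9 and 31.3 CPM in untreated Trim47-/-. After 5-FU it stood at 37.2, 37.4 and 36.6 CPM in wild type and 46.1, 43.6 and 47.0 CPM in Trim47-/-. The Trim47-/- libraries thus lay below wild type without the drug and above it with the drug, while the wild-type change did not pass (-0.02 ± 0.04, adjusted p = 0.740).

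The difference between the drug responses was tested as an interaction, the 5-FU response in Trim47-/- minus that in wild type. It was positive and called in 37 of 77 members and negative in 3 (26.4% and 28.5% of all genes), with a median of 0.24 against -0.03 for all genes. Large subunit genes had 23 higher and 2 lower of 49, and small subunit genes 14 higher and 1 lower of 28. With library totals the counts were 26 and 4, and the share of higher calls among all genes moved from 48.2% to 38.8%. The 3 estimates furthest up among members with at least 10 CPM were those of Mrpl2 (0.95 ± 0.19, adjusted p = 0.00132), Mrpl28 (0.89 ± 0.22, adjusted p = 0.00491) and Mrpl12 (0.86 ± 0.06, adjusted p = 2.99e-07). The 3 negative calls were Mrpl49 (-0.34 ± 0.07, adjusted p = 0.00176), Mrps31 (-0.34 ± 0.13, adjusted p = 0.0408) and Mrpl24 (-0.21 ± 0.05, adjusted p = 0.00614).

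In Trim47-/- mice, most members had more mRNA after 5-FU than without it. Of 77, 54 rose and 0 fell, against 29.6% and 30.8% of all genes. At an unadjusted p under 0.05 the count that fell was also 0, and DESeq2 called 50 higher and 0 lower. The median log2 change was 0.33 with a range of -0.11 to 0.82, against -0.01 for all genes, and 11 members changed by 1.5-fold or more. The 3 treated libraries stood above all 3 untreated ones in 58 members and below them in 0 (32.8% and 33.8% of all genes). By subunit, 36 of 49 large and 18 of 28 small subunit genes rose, with medians of 0.37 and 0.32. In the same comparison 9 of 9 neutrophil, 7 of 7 monocyte and macrophage, 7 of 8 erythroid and 5 of 6 megakaryocyte markers rose. Of the LT-HSC markers 6 of 9 fell and 2 rose, and 4 of 6 B and plasma cell markers fell. Their part in the result was not tested.

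The furthest up among members with at least 10 CPM were Mrpl20, Mrpl27 and Mrpl46. Mrpl20 went from 22.2, 22.3 and 24.2 CPM to 40.95, 38.8 and 41.1 CPM (0.82 ± 0.09, adjusted p = 8.81e-06). Mrpl27 went from 9.07, 8.74 and 8.41 CPM to 14.8, 14.6 and 16.4 CPM (0.81 ± 0.10, adjusted p = 3.64e-05). Mrpl46 went from 16.2, 13.3 and 16.2 CPM to 25.9, 26.3 and 27.6 CPM (0.80 ± 0.09, adjusted p = 1.60e-05). The table also holds a pseudogene of Mrpl27 with 39 to 69 counts per library, and reads of near-identical copies (also of Mrpl23, Mrpl48 and Mrps36) may be split between them. In each of the 3 genes the treated libraries lay well clear of the untreated ones.

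**Figure D4:**
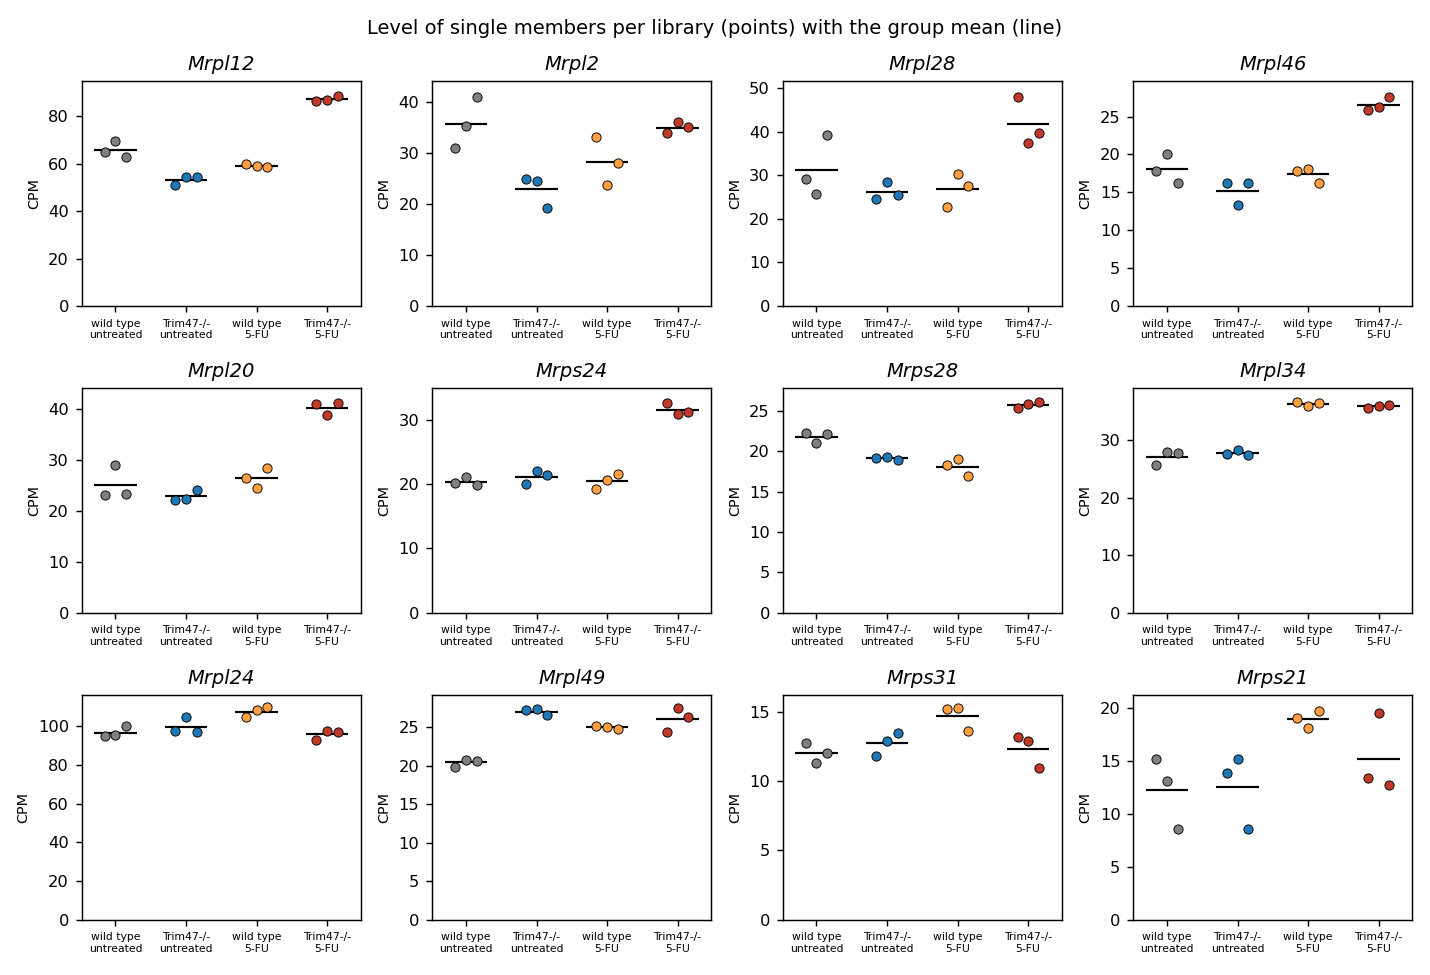
Points give the CPM of each library and lines the group mean for 12 members, from a baseline of 0. Mrpl12 is lowest in untreated Trim47-/- and highest in Trim47-/- after 5-FU, Mrpl34 rises with 5-FU in both genotypes, and Mrps21 has libraries of 1 group far apart.

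In wild type fewer members responded to 5-FU, and the counts moved with the scaling. Of 77 members 18 rose and 5 fell (25.2% and 25.4% of all genes), with a median log2 change of 0.08 against 0.01 for all genes. The treated libraries lay above the untreated ones in 29 members and below them in 5 (29.7% and 29.2% of all genes). Large subunit genes had 13 higher and 2 lower, with a median of 0.14, and small subunit genes 5 higher and 3 lower, with a median of 0.01. With library totals the counts were 36 higher and 1 lower, the median of all genes moved up by 0.10 and the share of higher calls among all genes went from 49.8% to 64.5%. In this comparison 8 of 8 erythroid markers rose (summed levels of 89.9 to 98.6 CPM untreated and 498 to 500.3 CPM treated), as did 8 of 9 neutrophil and 5 of 6 megakaryocyte markers, and 5 of 6 B and plasma cell markers fell. Their part in the result was not tested.

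Mrpl34, the counterpart of bacterial L34 and the member highest in FPKM, rose with the drug in wild type and in Trim47-/-. It went from 25.7, 27.9 and 27.8 CPM to 36.7, 35.9 and 36.4 CPM in wild type (0.42 ± 0.04, adjusted p = 9.48e-06). In Trim47-/- it went from 27.6, 28.4 and 27.5 CPM to 35.7, 36.0 and 36.1 CPM (0.37 ± 0.04, adjusted p = 1.66e-05). Neither genotype comparison nor the interaction passed for it (interaction -0.05 ± 0.06, adjusted p = 0.576). Members called higher with the drug in wild type and in Trim47-/- numbered 11 in all, and the matching share of all genes was not counted. Among them were Mrpl18 and Mrpl17, the latter at 0.33 ± 0.11 in wild type (adjusted p = 0.0300), a call lost without replicate 1 or 3 of the treated or replicate 1 or 2 of the untreated wild type (adjusted p 0.00563 to 0.108 over its alternatives).

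The 5 members that fell with 5-FU in wild type were Mrpl12, Mrpl37, Mrps9, Mrps18b and Mrps28. Mrps28 went from 22.3, 20.996 and 22.1 CPM to 18.3, 19.0 and 17.0 CPM (-0.27 ± 0.05, adjusted p = 0.00147). Mrpl37 went from 49.1, 51.1 and 52.1 CPM to 43.01, 44.5 and 45.3 CPM (-0.20 ± 0.04, adjusted p = 0.00111). Mrpl12 was lower by -0.15 ± 0.04 (adjusted p = 0.0101). All but Mrps9 rose with the drug in Trim47-/-, and the interaction passed for Mrpl12, Mrpl37 (0.49 ± 0.05, adjusted p = 1.32e-05), Mrps18b (0.68 ± 0.14, adjusted p = 0.00189) and Mrps28 (0.70 ± 0.08, adjusted p = 1.24e-05). With library totals only Mrps28 of these 5 was still called lower in wild type (Mrpl12 and Mrpl37 at adjusted p = 0.346 and 0.0584). How many of all genes fell in wild type and rose in Trim47-/- was not counted.

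A few symbols carry a subunit letter that does not match the protein's place. Structures put Mrps18a and Mrps30 in the large subunit, and the Mrps36 protein belongs to the 2-oxoglutarate dehydrogenase complex. Mrps30 rose with the Trim47-/- label after 5-FU, from 52.4, 55.5 and 53.0 CPM to 62.7, 65.9 and 65.8 CPM (0.27 ± 0.07, adjusted p = 0.00784). Mrps18a (0.06 ± 0.09, adjusted p = 0.628) and Mrps36 (0.34 ± 0.14, adjusted p = 0.0613) did not pass.

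Libraries of 1 group agreed closely for most members. The ratio of the highest to the lowest library of a group stayed under 1.5 in all 4 groups for 69 of 77 members, and 14.3% to 18.2% of members lay beyond counting noise in a group, as did 11.4% to 12.98% of all genes, where chance gives 1%. The 3 widest among members with at least 10 CPM were Mrps21, Mrps23 and Mrpl11. Mrps23 stood at 20.0, 19.0 and 32.7 CPM in untreated wild type and 18.6, 32.3 and 19.8 CPM in untreated Trim47-/-, 1 high library in each. Mrps21 stood at 15.2, 13.1 and 8.57 CPM and at 13.9, 15.2 and 8.60 CPM in the same groups, and Mrpl11 at 20.3, 22.5 and 13.6 CPM and at 22.3, 20.4 and 13.8 CPM. Each of these 3 genes thus took a high and a low level within a group, and their genotype differences did not pass. For Mrps21 and Mrpl11 the low library was replicate 3 in both untreated groups, whereas the high libraries of Mrps23 had different numbers. What the shared number reflects was not tested. Mrps21 passed as higher with 5-FU in wild type (0.63 ± 0.24, adjusted p = 0.0490), a call lost under 11 of its 19 alternatives.

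The 5 proteins of the particle that lack an Mrp symbol had 3 that rose with the Trim47-/- label after 5-FU and 2 that did not pass, with a median log2 difference of 0.36. Chchd1 was higher by 0.55 (20.8 to 30.5 CPM as group means), Ptcd3 by 0.41 (45.9 to 61.1 CPM) and Gadd45gip1 by 0.36 (33.2 to 42.6 CPM). Dap3, a small subunit GTP-binding protein, stood at 65.1 and 64.3 CPM and did not pass.

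Among 15 mitochondrial translation factors 4 were higher and 5 lower in Trim47-/- after 5-FU, near the shares of all genes (27.2% and 27.6%), with a median log2 difference of -0.22. Lrpprc and Slirp, whose proteins form a complex that stabilises mitochondrial mRNA, were higher by 0.20 and 0.47, and the elongation factors Tufm and Gfm1 by 0.22 and 0.18. The initiation factor Mtif2 (-0.22), the recycling factors Mrrf (-0.24) and Gfm2 (-0.24), the formyltransferase Mtfmt (-0.25) and the activator of cytochrome oxidase translation Taco1 (-0.59) were lower. With library totals 1 factor was higher and 9 were lower.

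Factors of ribosome assembly and ribosomal RNA modification had 7 of 25 higher and 9 lower, also near the shares of all genes, with a median of -0.08. The RNA helicase Ddx28, which acts on the large subunit, rose furthest, from 12.8 to 32.1 CPM (1.33, adjusted p = 1.12e-07). The GTPase Noa1 (0.31) and the factors Rcc1l (0.29) and Fastkd2 (0.27) were also higher. The methyltransferases Mrm1 (-0.65) and Tfb1m (-0.51) and Ngrn, a factor of the large ribosomal RNA, (-0.51) were lower. Of 20 genes for mitochondrial aminoacyl-tRNA synthetases and the amidotransferase, 1 was higher (Yars2, 0.46) and 4 were lower, among them Cars2 (-0.26) and Vars2 (-0.15), with a median of -0.06.

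**Figure D5:**
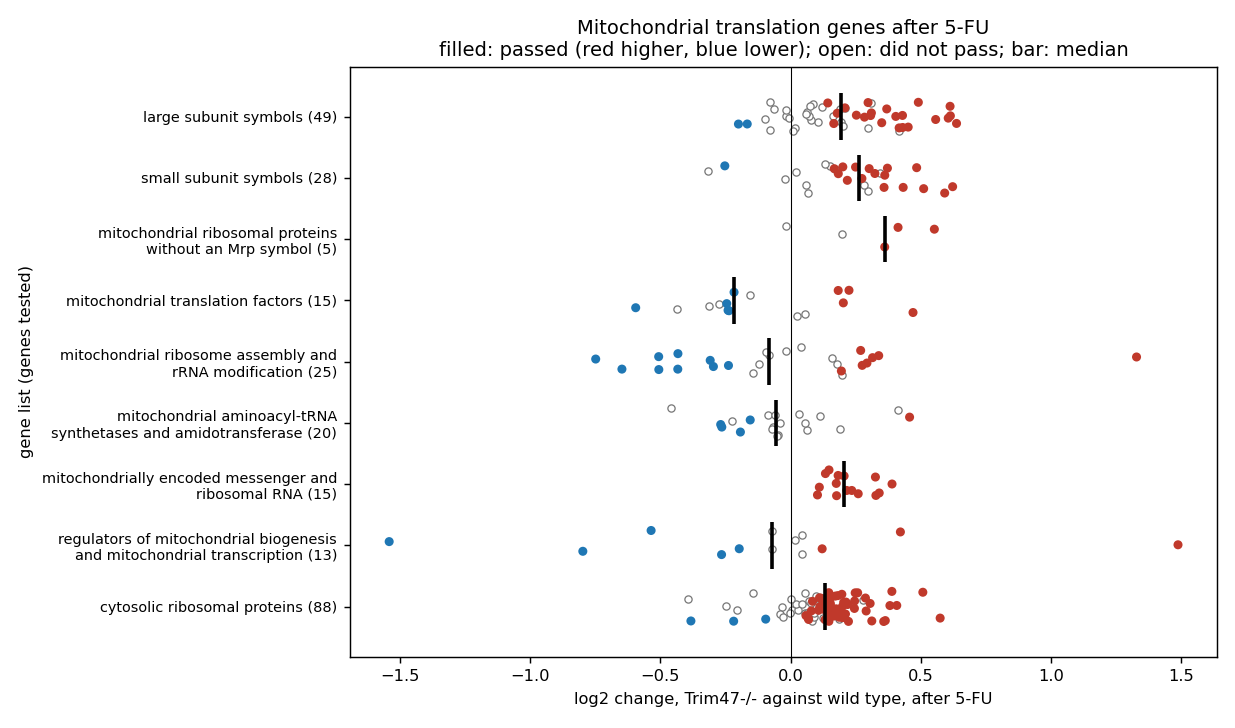
Each point is a gene, placed by its log2 difference between Trim47-/- and wild type after 5-FU, with the gene lists in rows and the median of each as a bar. Rows of ribosomal proteins and mitochondrially encoded RNA have medians right of 0, from 0.13 to 0.36, while translation factors, assembly factors, synthetases and regulators lie on both sides with medians from -0.22 to -0.06.

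RNA made from the mitochondrial genome was higher in Trim47-/- after 5-FU in 15 of 15 genes, with a median of 0.21, and in 12 of 15 with library totals. Libraries were made from poly-A RNA, so ribosomal RNA was measured only as far as it was captured. The ribosomal RNA of the small subunit, mt-Rnr1, went from 579 to 726 CPM between the genotypes (0.33) and that of the large subunit, mt-Rnr2, from 1483 to 1776 CPM (0.26). In untreated mice 13 of these 15 genes were higher in Trim47-/-, and mt-Rnr1 (-0.25) and mt-Rnr2 (-0.04) were the 2 that were lower. Of the genes for proteins of the cytosolic ribosome, 53 of 88 were higher after 5-FU and 3 lower, with a median of 0.13, and with library totals 28 were higher and 4 lower.

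Genes for regulators of mitochondrial biogenesis did not move as a group, with 3 of 13 higher and 5 lower and a median of -0.07. The coactivator gene Pprc1 was higher (1.49, adjusted p = 0.00552), as were the transcription factor Yy1 (0.12) and the mitochondrial transcription factor Tfb2m (0.42). The coactivator Ppargc1a (-1.54), Myc (-0.80), the elongation factor Tefm (-0.54), the mitochondrial RNA polymerase Polrmt (-0.26) and Nrf1 (-0.20) were lower. Gabpa and Tfam did not pass.

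Promoters were read from RefSeq (GRCm38.p6), which held 69 of the 78 members with 75 start sites, from 250 bases before to 50 bases after each start. Sites for ETS factors (CCGGAAGT), NRF1 (GCGCATGCG) and YY1 (AAGATGGCG) were searched on both strands, because these factors are known to act on nuclear genes for mitochondrial proteins. The ETS letters were in 12 of 75 member promoters (16%) and in 3.89% of all 32851 promoters. The YY1 letters were in 10.7% against 1.40%, and those of NRF1 in 9.33% against 1.75%. The E-box CACGTG was in 9.33% against 7.15%, and the TATA box TATAAA in 6.67% against 13.6%. Among promoters of genes that passed the filter on low counts the shares were 7.71% (ETS), 2.87% (YY1), 3.42% (NRF1), 9.86% (E-box) and 7.52% (TATA box), so the member share of the E-box lay between the 2 backgrounds and that of the TATA box below both.

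The counts of matches by call were small. Only 30 of the 38 members that rose with the Trim47-/- label after 5-FU had a listed promoter, so both sides were not covered alike. An ETS match was present in 6 of these 30 and in 6 of 38 listed and tested members that did not rise. An NRF1 match was in 1 and 6, a YY1 match in 5 and 3, and an E-box in 4 and 1. Windows from 150 bases before to 10 bases after the start are shown for 3 members that rose and, last, for Mrpl52, which fell, each with an ETS match in capitals on either strand. They are Mrps22 at chr9:98601670-98601829 (minus strand), Mrps26 at chr2:130563607-130563766, Mrpl33 at chr5:31613801-31613960 and Mrpl52 at chr14:54426759-54426918 (plus strand for these 3).
Mrps22: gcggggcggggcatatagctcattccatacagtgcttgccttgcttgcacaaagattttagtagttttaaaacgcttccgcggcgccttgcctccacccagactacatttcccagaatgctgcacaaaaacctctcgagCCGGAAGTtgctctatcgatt
Mrps26: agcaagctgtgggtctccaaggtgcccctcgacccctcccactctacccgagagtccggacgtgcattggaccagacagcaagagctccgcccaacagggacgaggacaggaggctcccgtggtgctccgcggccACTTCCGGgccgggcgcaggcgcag
Mrpl33: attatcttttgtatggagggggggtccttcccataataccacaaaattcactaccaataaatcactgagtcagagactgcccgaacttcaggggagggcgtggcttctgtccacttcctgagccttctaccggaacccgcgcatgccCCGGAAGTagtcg
Mrpl52: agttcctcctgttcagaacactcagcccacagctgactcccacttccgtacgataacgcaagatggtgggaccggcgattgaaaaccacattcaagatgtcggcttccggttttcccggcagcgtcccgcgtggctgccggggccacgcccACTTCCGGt
The match began 11 bases before the start in Mrps22, 15 before it in Mrps26 and 3 before it in Mrpl33, and at base 2 of the transcript in Mrpl52. With this motif beside the start, Mrps22 was higher by 0.48 ± 0.09, Mrps26 by 0.30 ± 0.06 and Mrpl33 by 0.30 ± 0.04. Mrpl52, also with it, was lower by -0.20 ± 0.08, a call lost under 11 of its 19 alternatives.

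The start of some members lies near that of a gene running the other way. A start site within 1000 bases of such a partner was found for 18 members, at 26 to 935 bases, and both genes were tested in 17 pairs. After 5-FU, 7 of these 17 members were higher in Trim47-/-, while 4 of their 7 partners were lower and 3 did not pass. Over all 17 pairs 3 partners were higher and 5 lower, near the shares of all genes. Mrps18b rose by 0.59 ± 0.10 while Ppp1r10, whose start lies 45 bases away, changed by -0.48, and Mrps18c rose by 0.32 while Helq, 29 bases away, changed by -0.54. Mrpl54 rose by 0.40 ± 0.08 while Apba3, 26 bases away, did not pass (-0.08, adjusted p = 0.416). Mrpl46 and Mrps11 overlap each other on opposite strands and both were higher, Mrps11 by 0.36 ± 0.07. Over the members, 33 shared exon sequence with another gene on either strand; of these 20 rose and 1 fell, and of the 44 tested without such overlap 18 rose and 2 fell.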

How the data were processed

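Raw counts per gene and FPKM values for 12 libraries were deposited in 1 table. Per the labels' protocols, the libraries were poly-A selected, stranded and paired-end. HISAT2, StringTie, edgeR, CASAVA 1.8 and the build GRCm38 come from the submitters' processing notes. The sources used here do not give the counting tool, the annotation release or how strand was treated in counting. FPKM served only to compare levels between genes.

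Counts were fitted with edgeR 4.0.16 (R 4.3.3) over all 12 libraries, with TMM scaling, filterByExpr (16319 genes kept) and the quasi-likelihood test. P-values were adjusted by Benjamini-Hochberg over all genes tested, and a call needs an adjusted p under 0.05. Alternatives were DESeq2 1.42.0 (its test and its size factors), library totals, no filter, a replicate block, an adjusted p under 0.01, only the 6 libraries compared and leaving out each library. The script was tested on simulated data. The members and lists were chosen with earlier results of these data known. Members were named by size among the calls (up to 3 each way per comparison, at least 10 CPM), by highest and lowest FPKM, by spread between libraries and by structural placement; others were chosen after their values were seen.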

Additional observations from a re-analysis of the deposited data

Results flagged for a closer look

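The test of the difference between the 2 drug responses (edgeR, 5-FU response in Trim47-/- minus that in wild type, log2) passed for 37 members upward and 3 downward, and the following named members are listed because of it. Upward, the estimates were 0.95 for Mrpl2, 0.89 for Mrpl28, 0.86 for Mrpl12, 0.86 for Mrpl46, 0.85 for Mrpl53, 0.74 for Mrpl20, 0.70 for Mrps28, 0.57 for Mrpl27, 0.57 for Mrps24, 0.49 for Mrpl37 and 0.34 for Mrps30. Downward they were -0.34 for Mrpl49, -0.34 for Mrps31 and -0.21 for Mrpl24. Mrpl53 was low, at 1.77 to 3.77 CPM, shares exon sequence with Gm42688 on the same strand, and kept its call under 7 of 18 alternatives. Mrps31 kept its call under 8 of 18, and Mrps30 under 15 of 18. The neutrophil, monocyte and LT-HSC markers given above moved between the same libraries, and their part in these differences was not tested.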

How the results depend on the processing

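The members' counts and their summed levels kept their direction under every alternative run. No named member changed sign where the main fit or the alternative called it, and signs of differences called in neither were not compared. Other lists were rerun only with library totals, DESeq2 size factors and the DESeq2 test. Across 12 leave-one-out fits the untreated genotype counts ran from 2 to 3 higher and 5 to 9 lower, those after 5-FU from 30 to 40 higher and 1 to 3 lower (30 without wild-type replicate 3 after 5-FU), the wild-type drug counts from 12 to 18 higher and 3 to 5 lower (3 without untreated wild-type replicate 3), the Trim47-/- drug counts from 49 to 55 higher with 0 lower, and the interaction from 32 to 36 higher and 2 to 4 lower. The DESeq2 test called 1 member higher in untreated Trim47-/- and 1 lower after 5-FU. An adjusted p under 0.01 left 4 lower in untreated mice, 1 lower after 5-FU, and 10 higher and 2 lower with the drug in wild type. Library totals gave 36 higher and 1 lower with the drug in wild type, and log2 ratios of the summed levels of 0.12 (large) and 0.16 (small) between genotypes after 5-FU and of 0.20 (large) and 0.14 (small) for the drug in wild type. For these the cause was not tested. With the replicate number as a block the counts higher and lower were 2 and 9 (untreated), 41 and 3 (after 5-FU), 17 and 4 (drug, wild type), 54 and 0 (drug, Trim47-/-) and 37 and 2 (interaction). Same-numbered libraries correlated at -0.137 to 0.0897 and others at -0.110 to 0.102, and 4 of 12 correlated best with their own number. Between the 2 untreated groups same-numbered libraries correlated at -0.137 to -0.0984 and others at 0.00428 to 0.102. These values cannot show whether libraries of the same number were paired or handled together. Depth limits Mrps10, with 0 to 7 counts.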

Other observations

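After Mrps21, Mrps23 and Mrpl11, Mrps12 and Mrpl1 were the next members with at least 10 CPM and libraries of 1 group at least 1.5-fold apart, with ratios of 1.57 and 1.54 between the highest and lowest library. Chchd1 and Ptcd3, small subunit proteins without an Mrp symbol, were lower in untreated Trim47-/- (23.2 to 19.7 CPM and 51.3 to 45.4 CPM as group means) and higher after 5-FU, the pattern also shown by Mrpl12. With library totals 1 of the 5 proteins without an Mrp symbol was called lower in untreated Trim47-/-. The helicase gene Ddx28 stood at 16.03, 11.7, 12.8 and 32.1 CPM in untreated wild type, untreated Trim47-/-, treated wild type and treated Trim47-/-, and its interaction passed (adjusted p = 1.70e-07, edgeR). Dap3 was higher in untreated Trim47-/- (54.7 to 61.2 CPM, adjusted p = 0.0485, edgeR) and did not differ beyond the test's threshold after 5-FU. Its untreated call was lost with DESeq2 size factors and by the DESeq2 test.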
